A study of Mus musculus with 4 samples.

Results

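The integrin and laminin genes of mouse heart nuclei are described here: every gene whose symbol is Itga or Itgb followed by a digit or letter, or Lama, Lamb or Lamc followed by a digit, with at least 20 unique molecular identifiers (UMIs, the counted RNA molecules) over the 4 libraries. There were 37 such genes of 32285 in the matrices: 26 integrin chains, of which 18 were alpha and 8 beta, and 11 laminin chains. Lama1 with 37 UMIs, Itgax with 119 and Itgb7 with 316 stood closest above the minimum. Itgb2l had the form of the name but 0 UMIs and was left out, and genes for proteins that bind an integrin, such as Itgb1bp1, were not taken. Each of 3 members overlaps another counted gene on its own strand (Lamb3, Itga6 and Itga1), so their counts are uncertain where reads could have gone to either gene.

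Integrins are the receptors through which cells hold on to the matrix around them or to other cells, and laminins are among the main matrix proteins they bind. An integrin is a pair of 1 alpha and 1 beta chain, and the pair decides the ligand: collagen, laminin, RGD-containing proteins such as fibronectin and vitronectin, or the surface proteins of other cells. A laminin is a trimer of 1 alpha, 1 beta and 1 gamma chain that assembles into the basement membrane sheet around muscle, vessels and nerves. In adult heart muscle the laminin trimer built on Lama2, the chain whose loss causes a congenital muscular dystrophy, is bound from the cardiomyocyte by dystroglycan and by the integrin pair of Itga7 and Itgb1.

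The study profiled single nuclei of whole hearts from C57BL/6 mice 6 months old with the 10x 3′ v3 assay, and its design text sets 3 RBM20 genotypes, 1 of them corrected by gene editing, beside WT. The 4 libraries were labelled RBM20 homo with correction (homozygous mutation treated by editing, called the corrected library here), RBM20 homo (Rbm20_homo), RBM20 het (Rbm20_het) and WT, and each pooled 3 hearts, so n = 1 library per genotype. The mutated allele, the editor, its delivery and the sex of the mice are not given in the sources used here. The library protocol text also speaks of CD45+ immune cells, although the labels describe total cardiac nuclei and most nuclei carried markers of heart muscle, fibroblasts or vessels. With 1 library per genotype no test between genotypes is possible. Every difference below is between libraries of pooled hearts. Square brackets hold 95% intervals, which cover counting error and nothing else.

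After filtering, 13144 nuclei of the corrected library, 10443 of Rbm20_homo, 8871 of Rbm20_het and 8681 of WT were kept, from 37180791 to 52370368 UMIs per library. Of the 41139 nuclei, 36301 fell into 12 lineages named from marker genes that include no member, written with the suffix "like". Between 21 and 47 kept barcodes were shared by a pair of libraries, at most 0.45% of the smaller one. The added features ABE_C and ABE_N, which the sources used here do not define, held 2332 and 3225 UMIs in ventricular cardiomyocyte-like nuclei of the corrected library and 0 in those of Rbm20_homo, Rbm20_het and WT. The Rbm20_homo library stands apart in its clusters: 2903 of its ventricular cardiomyocyte-like nuclei lay in cluster c3 and 57 in c0, whereas the other libraries had 39 to 198 in c3 and 2292 to 2845 in c0. Likewise 2701 of its fibroblast-like nuclei lay in cluster c4, led by Postn, Nox4 and Cilp, and 335 in c1, whereas the other libraries had 39 to 157 in c4 and 1642 to 3304 in c1. Rbm20 itself, the mutated gene, stood at 4706 CPM in ventricular cardiomyocyte-like nuclei of the corrected library, 3814 in Rbm20_homo, 4576 in Rbm20_het and 4555 in WT, and its level does not check a label that names a mutation. Malat1, a nuclear RNA, took 15.5% of ventricular cardiomyocyte-like UMIs in the corrected library, 24.1% in Rbm20_homo, 15.4% in Rbm20_het and 14.5% in WT.

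Which cells carry which chain was read first. Levels are UMIs per 1e6 non-mitochondrial UMIs of a lineage (CPM), given as the mean of the 4 libraries with the lowest and highest library in parentheses, and each gene is compared only with itself across lineages. Fibroblast-like nuclei had the highest level of 7 members, T cell-like and smooth muscle-like nuclei of 6 each, lymphatic endothelial-like of 4, mesothelial-like and Schwann-like of 3 each, ventricular cardiomyocyte-like, macrophage-like and endothelial-like of 2 each, and B cell-like and pericyte-like of 1 each. No member was highest in endocardial-like nuclei. The T cell-like, B cell-like, mesothelial-like and Schwann-like classes held 23 to 104 nuclei per library, so their levels are coarse. RNA carried over from other lineages is not subtracted from these levels, so a low level need not come from the lineage itself.

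**Figure D1:**
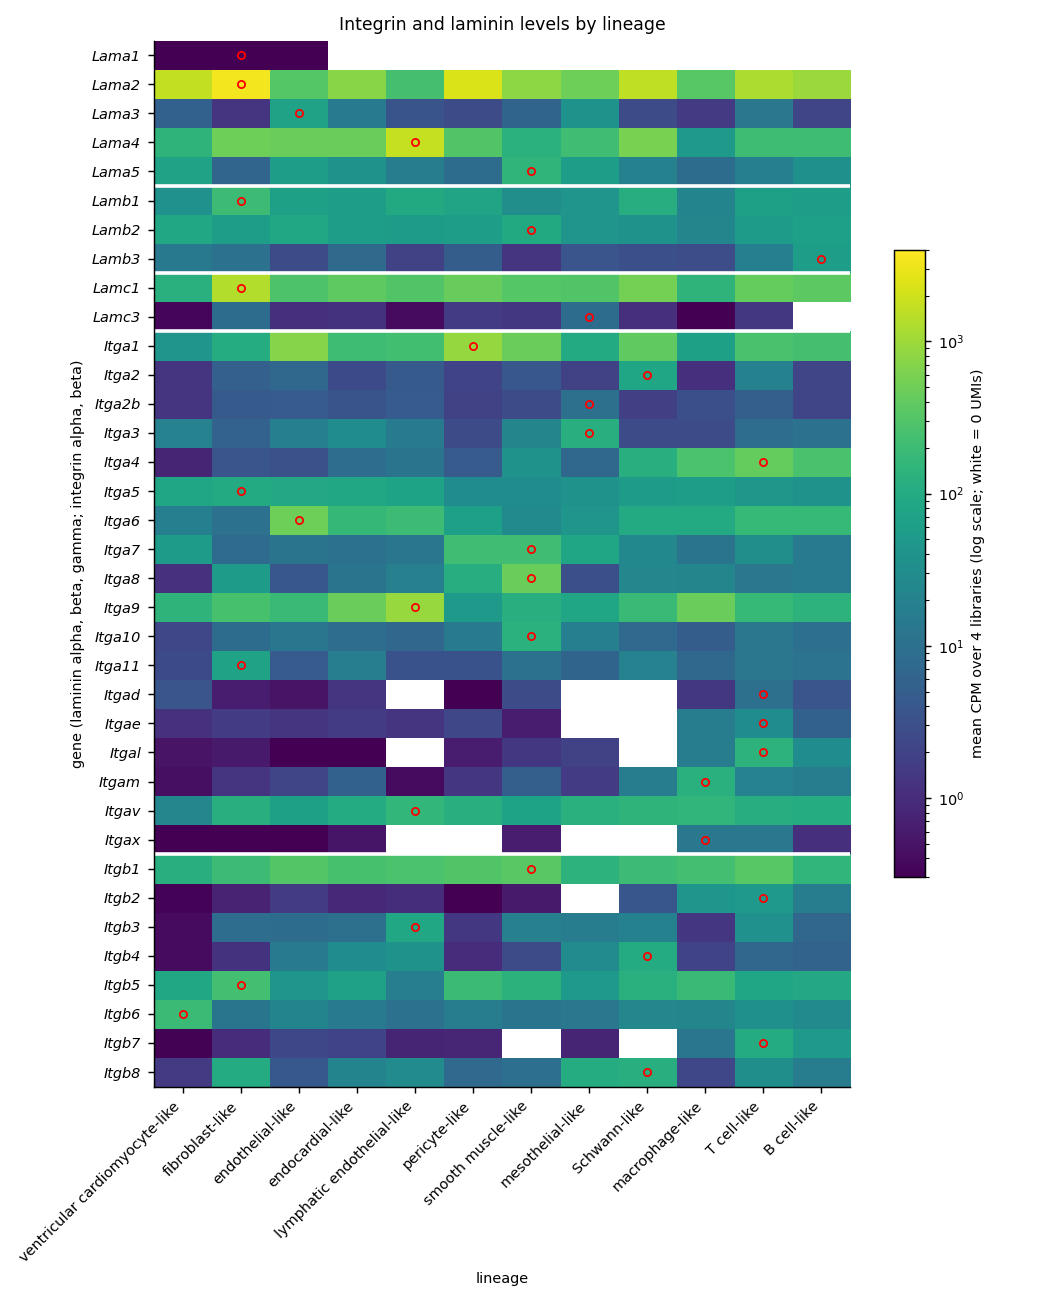
Heat map of the levels of the members (rows, ordered by family) in the 12 named lineages (columns), with colour giving the mean CPM of the 4 libraries on a log scale, white cells standing for 0 UMIs and a red ring marking the highest lineage of each row. Lama2 stands at 246 CPM or more in every lineage, Itgb6 stands out in ventricular cardiomyocyte-like nuclei and Lama4 in lymphatic endothelial-like nuclei. No carry-over is subtracted, and for Lama2 in endothelial-like nuclei its estimate exceeds the observed UMIs in all 4 libraries.

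Among the laminin alpha chains, Lama2 was highest in fibroblast-like nuclei at 3359 CPM (2956 to 3673), followed by pericyte-like nuclei at 2373 CPM (2236 to 2602) and ventricular cardiomyocyte-like nuclei at 1649 CPM (1472 to 1889). These 3 ranges do not overlap. Lama4, the alpha chain typical of vessel and fat basement membranes, stood at 1705 CPM (1526 to 1865) in lymphatic endothelial-like nuclei, far above Schwann-like nuclei at 597 CPM (516 to 667) and fibroblast-like nuclei at 498 CPM (328 to 646), whose ranges overlap. Endothelial-like nuclei had 461 CPM (318 to 606). Lama5, the broad alpha chain of mature vessel and epithelial membranes, was highest in smooth muscle-like nuclei at 150.4 CPM (127 to 203), with ventricular cardiomyocyte-like nuclei at 70.3 CPM (29.7 to 107) and endothelial-like nuclei at 61.4 CPM (55.9 to 65.1) next and overlapping. Lama3, a chain best known from skin, was highest in endothelial-like nuclei at 72.4 CPM (49.9 to 103), with mesothelial-like nuclei at 38.4 CPM (18.3 to 64) overlapping. Lama1, a chain of embryonic membranes, was close to absent, with a highest mean of 0.302 CPM in fibroblast-like nuclei.

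Of the beta and gamma chains, Lamc1, which nearly all common laminins contain, was highest in fibroblast-like nuclei at 1341 CPM (949.9 to 1597) and lowest in ventricular cardiomyocyte-like nuclei at 123 CPM (94.6 to 165). Lamb1 followed it, with 204 CPM (144 to 247) in fibroblast-like nuclei and 36.4 CPM (25.9 to 41.3) in ventricular cardiomyocyte-like nuclei. Fibroblast-like nuclei thus had the highest level of each chain of the Lama2, Lamb1 and Lamc1 trimer. Lamb2, the beta chain of the mature muscle and vessel trimer, differed little between its 3 highest lineages: smooth muscle-like at 96.5 CPM (88.4 to 108), ventricular cardiomyocyte-like at 88.3 CPM (65.2 to 112) and endothelial-like at 85.5 CPM (71.3 to 105). Lamc3 was seen mainly in mesothelial-like and fibroblast-like nuclei, at means of 8.58 and 8.54 CPM, the mesothelial-like value resting on 7 UMIs. Lamb3, a beta chain of epithelial laminin, was scarce. It was highest in B cell-like nuclei, at 59.5 CPM (53.1 to 62.1) from 37 UMIs, and stood at 14.2 CPM (7.6 to 22.2) in ventricular cardiomyocyte-like nuclei.

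Itgb1, the shared partner of most matrix-binding alpha chains, was measured in all 12 lineages, with means of 114 CPM in ventricular cardiomyocyte-like nuclei to 350.2 CPM in smooth muscle-like nuclei. The laminin-binding alpha chains had their highest levels in different lineages. Itga7 was highest in smooth muscle-like nuclei at 219.6 CPM (172 to 296) and pericyte-like nuclei at 216 CPM (171 to 278), which overlap, and stood at 54.4 CPM (50.8 to 59.8) in ventricular cardiomyocyte-like nuclei. Itga6 was highest in endothelial-like nuclei at 489 CPM (382 to 584), and Itga3 in mesothelial-like nuclei at 116 CPM (91.4 to 134). Itgb4, which pairs with Itga6 at hemidesmosomes of epithelia and in Schwann cells, was highest in Schwann-like nuclei at 102 CPM (78.6 to 137).

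Collagen-binding alpha chains were likewise placed by lineage. Itga1 was highest in pericyte-like nuclei at 880.3 CPM (731 to 1000.05) and endothelial-like nuclei at 726 CPM (677 to 749), overlapping ranges. Itga11, a fibrillar collagen receptor of fibroblasts, stood at 72.5 CPM (57.7 to 84.2) in fibroblast-like nuclei, against a next mean of 20.01 CPM in Schwann-like nuclei. Itga10 was highest in smooth muscle-like nuclei at 131 CPM (83.9 to 218), and Itga2 in Schwann-like nuclei at 81.7 CPM (65.5 to 105).

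Among the RGD-binding receptors, Itga5, the fibronectin receptor chain, differed little between fibroblast-like nuclei at 101 CPM (94.4 to 110.4), endothelial-like nuclei at 92 CPM (79.97 to 105) and endocardial-like nuclei at 90.0 CPM (84.9 to 95.2). Itga8, which binds nephronectin, was highest in smooth muscle-like nuclei at 466 CPM (426 to 492), then pericyte-like nuclei at 111 CPM (70.3 to 136) and fibroblast-like nuclei at 56.6 CPM (33.4 to 80.5). Itgav, the partner of several beta chains that bind vitronectin or latent TGF-beta, ranged only from 24.7 CPM in ventricular cardiomyocyte-like nuclei to 161 CPM in lymphatic endothelial-like nuclei. Among its beta partners, Itgb6 and Itgb3 were more selective than Itgb5 and Itgb8. Itgb6, an activator of latent TGF-beta best known from epithelia, had 193 CPM (84.7 to 283) in ventricular cardiomyocyte-like nuclei and a next mean of 35.1 CPM in T cell-like nuclei. Itgb5 was highest in fibroblast-like nuclei at 237 CPM (189 to 309.9), Itgb8 in Schwann-like nuclei at 119 CPM (93 to 153) with mesothelial-like and fibroblast-like nuclei overlapping it, and Itgb3 in lymphatic endothelial-like nuclei at 85.3 CPM (45.3 to 116). Itga2b, the platelet receptor chain, was highest in mesothelial-like nuclei at 10.1 CPM from 7 UMIs.

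The leukocyte integrins were highest in immune lineages, and none had been used to name them. Itgal stood at 139.7 CPM (105 to 189) in T cell-like nuclei, and Itgb7, a homing receptor chain of lymphocytes, at 104 CPM (60.8 to 141). Itgam, the complement receptor chain of myeloid cells, had 123 CPM (105 to 155) in macrophage-like nuclei. Itgax was at 13.4 CPM in macrophage-like and 13.3 CPM in T cell-like nuclei, and the shared beta chain Itgb2 at 51.8 CPM in T cell-like and 43.5 CPM in macrophage-like nuclei, so neither orders the pair. Itgae and Itgad were highest in T cell-like nuclei at means of 30.6 and 10.1 CPM, from 19 and 7 UMIs. Itga4, the receptor chain for Vcam1, was highest in T cell-like nuclei at 426 CPM (318 to 544), ahead of macrophage-like nuclei at 267 CPM (249 to 284). Its close relative Itga9, needed for lymphatic valves, was highest in lymphatic endothelial-like nuclei at 940.0 CPM (662 to 1205), ahead of endocardial-like nuclei at 468 CPM (297 to 556) and macrophage-like nuclei at 454 CPM (361 to 568).

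In ventricular cardiomyocyte-like nuclei of Rbm20_homo, the integrins and laminins differed from WT in both directions. The laminin gamma chain Lamc1 and the integrin alpha chains Itga9 and Itga5 were higher, whereas Itgb6, Lama5, Lamb3, Itga6, Lamb2 and Lama3 were lower. Genotypes are compared on scaled CPM, which is CPM divided by a factor that centres the genes of the lineage. Of 25 members that had 50 UMIs or more over Rbm20_homo and WT, 5 were at least 1.5-fold higher and 7 at least 1.5-fold lower. Over all measured genes 17.0% were that much higher and 14.4% that much lower, against 20% and 28% of the members, so the share higher was near its background and the share lower above it. The other 12 members had too few UMIs. The members' median log2 ratio was -0.09, against 0.01 over all genes, and with plain CPM the median of all genes shifts to -0.18. Atrial markers differed as well, the 6 listed genes summing to 935 CPM in Rbm20_homo and 15 in WT, with Sln and Bmp10 at 0 in all 4 libraries and only 2 of the 6 with UMIs in each. Their part in the members' differences was not tested.

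The promoters of members that stood apart in both comparisons of Rbm20_homo are shown to give the sequence next to their start: Itgb6 and Lama5 were lower in Rbm20_homo than in WT and higher again in the corrected library, and Itga5 the reverse. Each run is 200 bases, from 250 to 51 before the RefSeq start, 5′ to 3′ on the gene's strand in GRCm38.p6. It holds no annotated exon of that gene, and exons of other genes were not checked. The windows are chr2:60722654-60722853 on the minus strand for Itgb6, chr2:180225910-180226109 on the minus strand for Lama5 and chr15:103366842-103367041 on the minus strand for Itga5. Capitals mark the GC box GGGCGG on either strand.
Itgb6: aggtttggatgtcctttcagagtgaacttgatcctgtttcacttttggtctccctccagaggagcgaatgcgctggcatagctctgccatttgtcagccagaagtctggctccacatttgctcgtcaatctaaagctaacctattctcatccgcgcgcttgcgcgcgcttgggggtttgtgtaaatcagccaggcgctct
Lama5: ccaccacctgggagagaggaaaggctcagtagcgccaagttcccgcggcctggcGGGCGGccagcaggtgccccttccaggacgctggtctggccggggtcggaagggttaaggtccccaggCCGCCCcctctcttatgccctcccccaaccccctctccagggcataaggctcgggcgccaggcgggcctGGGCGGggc
Itga5: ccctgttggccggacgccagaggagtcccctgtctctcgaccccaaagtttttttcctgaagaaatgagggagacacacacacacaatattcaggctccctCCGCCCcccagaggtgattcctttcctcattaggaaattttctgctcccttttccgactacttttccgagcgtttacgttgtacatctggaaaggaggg
The Lama5 window held 3 GC boxes and 72.0% G and C, and the Itga5 window 1 GC box and 51.5%, while that of Itgb6 (52.0%) held none. Of 32851 such windows over all genes, 24.6% hold a GC box. The same windows were searched on both strands for the AP-1 motif TGANTCA, held by 5.57% of all windows, the TEAD motif GGAATG (10.7%), the TATA box TATAAA (9.14%), the MEF2 motif (0.368%) and the CArG box (1.16%). None of the 3 windows held any of these 5. A match or its lack is only a description of these letters. The promoter table held 23 of the 37 members.

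Itgb6 (chr2:60598292-60722643) is the member that most sets ventricular cardiomyocyte-like nuclei apart from other lineages, and with 12334 UMIs it was the best measured of the lower ones. Its scaled CPM was 281 in the corrected library, 91.6 in Rbm20_homo, 155 in Rbm20_het and 234 in WT. Rbm20_homo was 2.55-fold [2.41 to 2.71] lower than WT, the corrected library 3.06-fold [2.89 to 3.24] higher than Rbm20_homo, and Rbm20_het lay between Rbm20_homo and WT. RNA carried over from other lineages, estimated from how much of their markers the nuclei held, would give 0.611% of the Rbm20_homo UMIs and 0.505% of the WT UMIs. The 2 clusters of the lineage gave the same order of Rbm20_homo and WT: in c3 the CPM was 84.2 [80.2 to 88.4] in Rbm20_homo and 261 [201 to 333] in WT, and in c0 it was 125 [86.4 to 174] in Rbm20_homo and 247 [239 to 255] in WT.

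Lama5 (chr2:180176373-180225859) followed the same order. Its scaled CPM was 107 in the corrected library, 32.1 in Rbm20_homo, 56.9 in Rbm20_het and 81.7 in WT, which makes Rbm20_homo 2.54-fold [2.31 to 2.81] lower than WT and the corrected library 3.32-fold [3.02 to 3.65] higher than Rbm20_homo. Within clusters the picture was uneven. In c0 the CPM of Lama5 was 55 [30.8 to 90.8] in Rbm20_homo, from 15 UMIs, and 87.2 [82.6 to 92] in WT, and in c3 it was 29.3 [27 to 31.9] in Rbm20_homo and 24.5 [8.98 to 53.3] in WT, from 6 UMIs. So within c3, which holds nearly all Rbm20_homo nuclei of the lineage, the WT nuclei were not above Rbm20_homo.

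**Figure D2:**
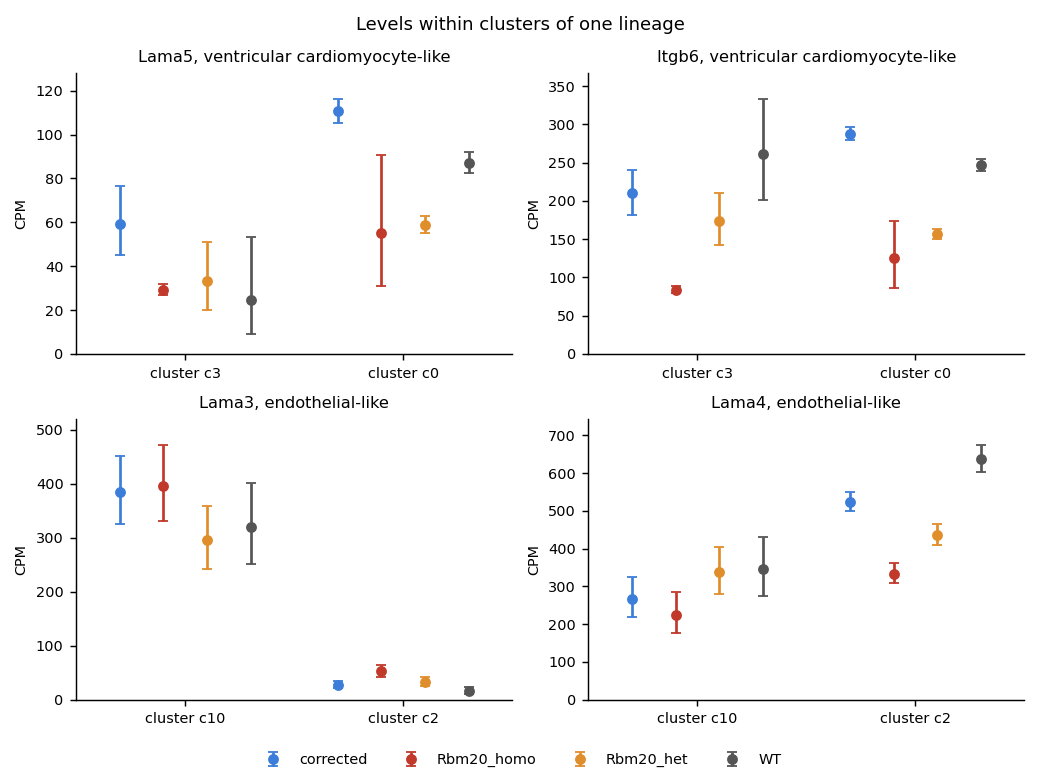
Levels in CPM (vertical axis, from 0) of Lama5 and Itgb6 in the ventricular cardiomyocyte-like clusters c3 and c0 and of Lama3 and Lama4 in the endothelial-like clusters c10 and c2. Points are the 4 libraries in the order corrected, Rbm20_homo, Rbm20_het and WT, and bars are 95% Poisson intervals of the UMI count, wide where a library has few nuclei in a cluster.

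The fibronectin receptor chain Itga5 (chr15:103344286-103366763) and Itga9 (chr9:118606690-118901003), which binds tenascin and Vcam1, were both higher in Rbm20_homo. Itga5 had a scaled CPM of 70.0 in the corrected library, 137 in Rbm20_homo, 64.7 in Rbm20_het and 58.1 in WT, and Rbm20_homo was 2.36-fold [2.19 to 2.54] higher than WT. For Itga9 it was 144 in the corrected library, 228 in Rbm20_homo, 116 in Rbm20_het and 99.4 in WT, with Rbm20_homo 2.3-fold [2.17 to 2.43] higher than WT. The corrected library was 1.96-fold [1.82 to 2.1] lower than Rbm20_homo for Itga5 and 1.59-fold [1.51 to 1.68] lower for Itga9. In both genes the level went with the cluster: c3 had 128 CPM of Itga5 in Rbm20_homo and 126 in WT, and c0 had 55 in Rbm20_homo and 60.2 in WT. For Itga9 the CPM was 213 in Rbm20_homo and 245 in WT within c3, and 91.7 in Rbm20_homo and 103 in WT within c0. Within each cluster the 2 libraries thus had similar values of these 2 genes. Cluster c3 held only 39 WT nuclei and c0 only 57 Rbm20_homo nuclei, so these values are coarse and a moderate difference could be missed. How far the clusters' makeup accounts for the ratio was not tested.

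Lamc1 (chr1:153218922-153332786) had a scaled CPM of 119 in the corrected library, 178 in Rbm20_homo, 111 in Rbm20_het and 89.6 in WT, and Rbm20_homo was 1.99-fold [1.87 to 2.11] higher than WT. This gene is abundant in fibroblast-like nuclei, and fibroblast markers were also higher: the 12 markers of that list, all with UMIs in every library, summed to 234 CPM in ventricular cardiomyocyte-like nuclei of the corrected library, 306 in Rbm20_homo, 215 in Rbm20_het and 160.0 in WT. The estimated share of Lamc1 UMIs from other lineages was 30.4% in Rbm20_homo and 46.1% in WT, and after subtracting it the log2 ratio was 1.36 in place of 0.99. Within cluster c3 the CPM of Lamc1 was 165 [159 to 171] in Rbm20_homo and 155 [109.7 to 213] in WT, and within c0 it was 143 [102 to 196] in Rbm20_homo and 93.7 [88.9 to 98.6] in WT, so the 2 libraries were apart in c0 and overlapped in c3.

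Among the lower members, Itga6 and the 2 scarce epithelial chains had few UMIs. Lamb3 had a scaled CPM of 14.7 in the corrected library, 8.22 in Rbm20_homo, 12 in Rbm20_het and 21 in WT, with Rbm20_homo 2.56-fold [2.11 to 3.12] lower than WT and the corrected library 1.79-fold [1.45 to 2.21] higher than Rbm20_homo. Itga6, the laminin receptor chain of endothelium, had 18 in the corrected library, 9.81 in Rbm20_homo, 19.5 in Rbm20_het and 24.5 in WT, and Rbm20_homo was 2.5-fold [2.09 to 3.0] lower than WT. Carry-over was estimated at 86.2% of its UMIs in Rbm20_homo and 36.1% in WT, so most of the Rbm20_homo signal is within what carry-over alone would give. Lama3 had 7.52 in the corrected library, 3.34 in Rbm20_homo, 6.61 in Rbm20_het and 5.25 in WT, from 61 UMIs in Rbm20_homo and 87 in WT, and its 1.5-fold difference was lost at 1000 UMIs per nucleus, while subtracting carry-over gave a log2 ratio of -1.30 in place of -0.65.

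Lamb2, the beta chain of mature muscle laminin, stood just past the threshold with a scaled CPM of 91.3 in the corrected library, 70.5 in Rbm20_homo, 82.3 in Rbm20_het and 106 in WT. Rbm20_homo was 1.51-fold [1.4 to 1.62] lower than WT, which was short of 1.5-fold when nuclei were thinned. Itgae, an integrin of tissue lymphocytes, was also past the fold on the higher side and the collagen receptor chain Itga2 on the lower, with 81 and 86 UMIs over the 4 libraries. Both, like Itga10 and the other members listed beside a count without values of their own, were named after their values were seen.

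**Figure D3:**
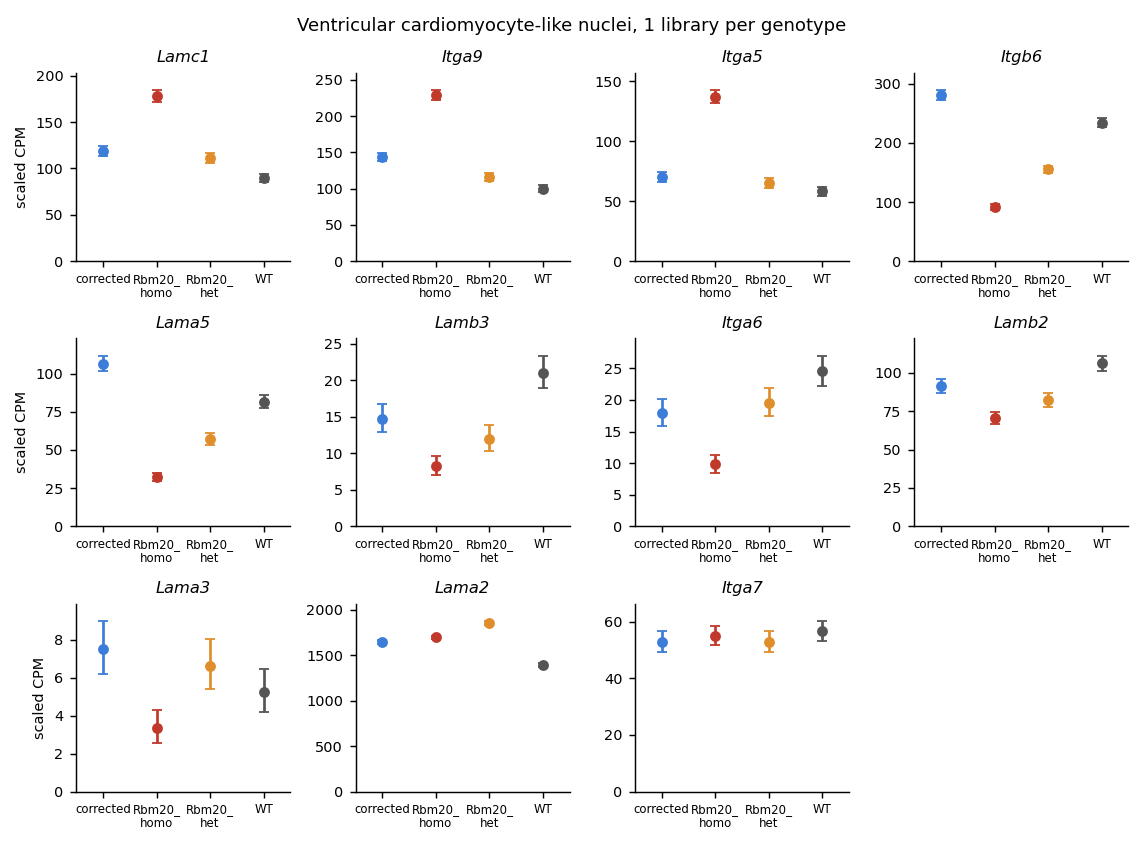
Scaled CPM (vertical axis, from 0) of 11 members in ventricular cardiomyocyte-like nuclei, 1 point per library in the order corrected, Rbm20_homo, Rbm20_het and WT, with bars giving the 95% Poisson interval. Rbm20_homo is the lowest of the 4 libraries for Itgb6 and Lama5 and the highest for Itga5, Itga9 and Lamc1.

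The main laminin of heart muscle and its integrin receptor were not past 1.5-fold in Rbm20_homo. Lama2 had a scaled CPM of 1651 in the corrected library, 1699 in Rbm20_homo, 1860.1 in Rbm20_het and 1394 in WT, a ratio of Rbm20_homo to WT of 1.22 [1.2 to 1.24]. Itga7 was nearly level at 52.9 in the corrected library, 55 in Rbm20_homo, 52.9 in Rbm20_het and 56.6 in WT, a ratio of 0.971 [0.887 to 1.06]. For Itgb1 the values were 108 in the corrected library, 143 in Rbm20_homo, 102 in Rbm20_het and 107 in WT, a ratio of 1.33 [1.25 to 1.41]. The scaled CPM of Itgb1 was thus highest in Rbm20_homo, and that of Itga7 hardly differed between libraries. Lama4 had 130.1 in the corrected library, 181 in Rbm20_homo, 122 in Rbm20_het and 138 in WT. Itga1 was at 53.5 in the corrected library, 42 in Rbm20_homo, 40.01 in Rbm20_het and 35.9 in WT. Itgb5 was at 95.8 in the corrected library, 74.1 in Rbm20_homo, 87.7 in Rbm20_het and 79.1 in WT. None of these 6 reached 1.5-fold between Rbm20_homo and WT. Subtracting carry-over turned the direction of Itga1, to a log2 ratio of -0.08 in place of 0.22.

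Against Rbm20_homo, the corrected library had more Itgb6, Lama5 and Lamb3 and less Itga5 and Itga9. Of 24 members measured, 5 were at least 1.5-fold higher (Lamb3, Itgb6, Itga6, Lama5 and Lama3), where 11.0% of all genes were, and 5 lower (Itga10, Itga9, Itgae and Itga5 among them), where 13.3% were. This comparison shares the Rbm20_homo library with the one above, so an opposite sign is partly built in. The Itga10 difference turned its sign at 1000 UMIs per nucleus and Itga9 was short of 1.5-fold on plain CPM. Against WT, the corrected library had 1 of 22 members higher, where 7.59% of all genes were, and 1 lower (Itga10), where 7.26% were. Rbm20_het had 1 of 23 higher (6.72% of all genes) and 4 lower (Lamb3, Itgb6, Itga10 and Itga2; 6.07% of all genes).

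Itgb6 and Lama5 show where the corrected library and Rbm20_het stood against WT. For Itgb6 the corrected library was 1.2-fold [1.15 to 1.25] higher than WT and Rbm20_het 1.51-fold [1.43 to 1.59] lower. For Lama5 the corrected library was 1.3-fold [1.21 to 1.4] higher and Rbm20_het 1.44-fold [1.32 to 1.56] lower than WT. For both members the corrected library was the highest of the 4.

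The proteins that work with these receptors were followed in 3 lists. Of the 22 genes for dystroglycan, the dystrophin complex and the enzymes that modify dystroglycan, all measured in ventricular cardiomyocyte-like nuclei, 5 were at least 1.5-fold higher in Rbm20_homo than in WT and 0 lower, with a median log2 ratio of 0.21. That is 22.7% higher, near the 17.0% of all genes. Dmd, which encodes dystrophin, had a scaled CPM of 7383 in the corrected library, 12315 in Rbm20_homo, 7770.1 in Rbm20_het and 7154 in WT. Dag1, the precursor of dystroglycan, had 299 in the corrected library, 361 in Rbm20_homo, 265 in Rbm20_het and 197 in WT. Sntb1, a syntrophin that docks signalling proteins on the complex, had 58.5 in the corrected library, 90.1 in Rbm20_homo, 62.3 in Rbm20_het and 48.8 in WT. In these 3 genes Rbm20_homo was the highest library.

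Basement membrane partners and integrin ligands were more mixed, with 15 of 25 measured genes (60%) higher and 6 (24%) lower in Rbm20_homo than in WT, where 17.0% and 14.4% of all genes were, a median log2 ratio of 0.77. Sparc, a collagen-binding matrix protein, had a scaled CPM of 30.3 in the corrected library, 68.2 in Rbm20_homo, 27.2 in Rbm20_het and 13 in WT. Ntn1, a netrin with a laminin-like domain, had 77.2 in the corrected library, 23 in Rbm20_homo, 113 in Rbm20_het and 183 in WT. Egflam, a dystroglycan ligand also called pikachurin, had 8.1 in the corrected library, 1.86 in Rbm20_homo, 8.61 in Rbm20_het and 14.8 in WT. These are opposite patterns, with Sparc highest and the other two lowest in Rbm20_homo. Fras1, a matrix protein of embryonic basement membranes, stood at 1.74 in the corrected library, 6.19 in Rbm20_homo, 2.25 in Rbm20_het and 1.02 in WT. Genes of the adhesion complex inside the membrane lay mostly on one side: 22 of 39 measured adhesion complex genes were higher in Rbm20_homo and 0 lower, with a median log2 ratio of 0.70 beside 0.01 over all genes. Enah, which drives actin filament growth, had 322 in the corrected library, 919 in Rbm20_homo, 282 in Rbm20_het and 239 in WT. Sorbs3, the adaptor vinexin, had 3.92 in the corrected library, 29.1 in Rbm20_homo, 5.78 in Rbm20_het and 3.74 in WT. Zyx, the adhesion protein zyxin, had 7.0 in the corrected library, 31.5 in Rbm20_homo, 9.06 in Rbm20_het and 8.86 in WT. In each of these 3 genes Rbm20_homo was far above the other libraries. Ptk2b, a relative of focal adhesion kinase, had 11.3 in the corrected library, 22.6 in Rbm20_homo, 12.3 in Rbm20_het and 8.14 in WT. Against Rbm20_homo, the corrected library had 0 of 39 adhesion genes higher and 14 (35.9%) lower, a median of -0.41. For the basement membrane list 5 of 25 (20%) were higher and 10 (40%) lower, a median of -0.35. Over all genes 11.0% were higher and 13.3% lower in this comparison. It shares the Rbm20_homo library with the comparison to WT, so an opposite sign is partly built in.

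In fibroblast-like nuclei, Rbm20_homo had less Lama4 and more Itga9, Itgb5, Itga1 and Lamc3 than WT, and over the lineage also less Itga8. Of 27 members measured, 6 were at least 1.5-fold higher, where 13.2% of all genes were, and 5 lower, where 9.68% were. These are 22.2% and 18.5% of the members, both above their background. Their median log2 ratio was -0.15, against 0.02 over all genes. Here too the lineage is split by cluster: c4 holds most Rbm20_homo nuclei and c1 most of the others. The 6 atrial markers, 3 of them with UMIs in every library and Sln and Bmp10 at 0 in all, summed to 614 CPM in these nuclei of Rbm20_homo and 26.2 in WT, and their part in the members' differences was not tested.

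Lama4 (chr10:38965515-39110188) had a scaled CPM of 546 in the corrected library, 321 in Rbm20_homo, 481 in Rbm20_het and 648 in WT, lowest in Rbm20_homo. Rbm20_homo was 2.02-fold [1.92 to 2.12] lower than WT and the corrected library 1.7-fold [1.62 to 1.78] higher than Rbm20_homo. Within clusters its CPM was 371 in Rbm20_homo and 635 in WT for c1, and 320.0 [308 to 332] in Rbm20_homo and 444 [327 to 589] in WT for c4, so it was lower in Rbm20_homo in both, with intervals that overlap slightly in c4. Lamc1, which most laminins share, went the same way but stayed inside 1.5-fold of WT: its scaled CPM was 1447 in the corrected library, 930.5 in Rbm20_homo, 1609 in Rbm20_het and 1389 in WT, a ratio of Rbm20_homo to WT of 0.67 [0.649 to 0.691], and the corrected library was 1.55-fold [1.51 to 1.6] higher than Rbm20_homo. In c1 its CPM was 973 in Rbm20_homo and 1317 in WT, and in c4 it was 942 in Rbm20_homo and 953 in WT. Lamb1 had 249.9 in the corrected library, 141 in Rbm20_homo, 223 in Rbm20_het and 205 in WT, and the corrected library was 1.78-fold [1.66 to 1.9] higher than Rbm20_homo. The third chain of that trimer, Lama2, had 3712 in the corrected library, 2895 in Rbm20_homo, 3362 in Rbm20_het and 3478 in WT, a ratio of Rbm20_homo to WT of 0.832 [0.817 to 0.848].

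Among the receptors, Itga8 had a scaled CPM of 81.3 in the corrected library, 32.7 in Rbm20_homo, 63.5 in Rbm20_het and 49.5 in WT. Rbm20_homo was 1.51-fold [1.28 to 1.79] lower than WT, which was short of 1.5-fold on plain CPM, and the corrected library was 2.49-fold [2.17 to 2.85] higher than Rbm20_homo. In cluster c4 its CPM was 81.6 [52.8 to 121] in the corrected library, 29.4 [25.9 to 33.3] in Rbm20_homo, 49.5 [32.4 to 72.6] in Rbm20_het and 37 [10.1 to 94.7] in WT. In c1 its CPM was 86.2 [79.8 to 92.9] in the corrected library, 71.2 [55.3 to 90.2] in Rbm20_homo, 70.1 [63.4 to 77.4] in Rbm20_het and 58 [50.9 to 65.8] in WT. So Rbm20_homo was not below WT in c1, and the 2 libraries overlapped in c4. Itga9 had 217 in the corrected library, 329 in Rbm20_homo, 246 in Rbm20_het and 200.3 in WT, and Rbm20_homo was 1.64-fold [1.53 to 1.77] higher than WT. Itgb5, which pairs with Itgav, had 232 in the corrected library, 304 in Rbm20_homo, 220.3 in Rbm20_het and 189 in WT, with Rbm20_homo 1.6-fold [1.49 to 1.73] higher than WT. The collagen receptor chain Itga1 had 114 in the corrected library, 137 in Rbm20_homo, 94.3 in Rbm20_het and 89.2 in WT, with Rbm20_homo 1.53-fold [1.38 to 1.71] higher than WT. In these 3 receptors Rbm20_homo was the highest library. Within cluster c4 the CPM of Itga9 was 342 [329.6 to 355] in Rbm20_homo and 278 [187 to 396] in WT, and within c1 it was 280.4 [248 to 316] in Rbm20_homo and 183 [169.9 to 196] in WT. Itgb5 had 319 [307 to 331] in Rbm20_homo and 213 [135 to 319] in WT within c4, and 235 [206 to 268] in Rbm20_homo and 196 [183 to 210.1] in WT within c1. Both genes had higher levels in c4 than in c1 in Rbm20_homo, while in WT the intervals of the 2 clusters overlapped. For Itga1 the estimated carry-over was 32.5% in Rbm20_homo and 55.4% in WT, and subtracting it gave a log2 ratio of 1.22 in place of 0.62.

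**Figure D4:**
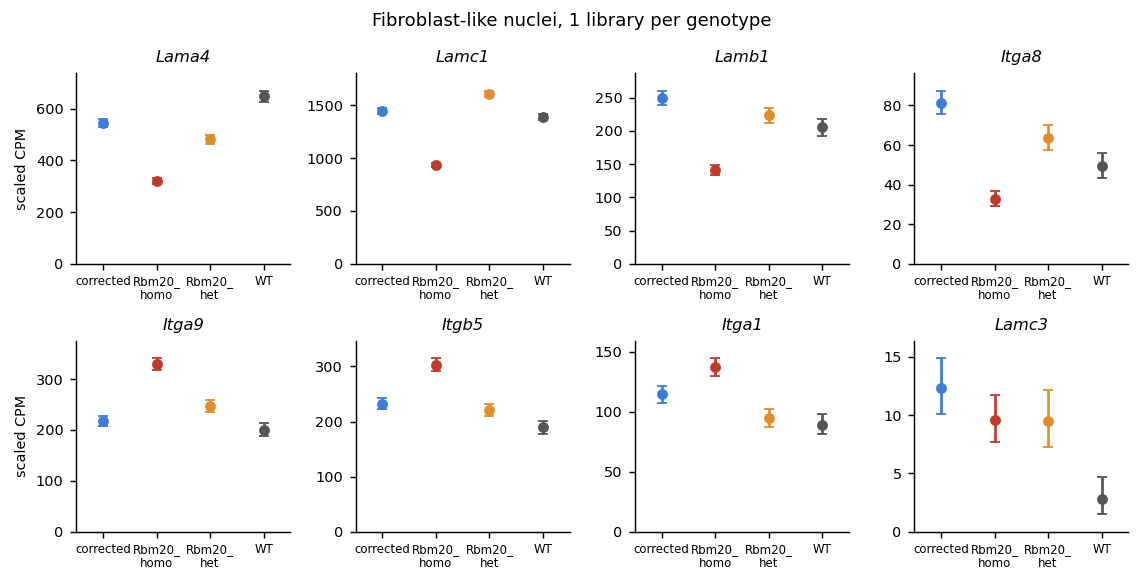
Scaled CPM (vertical axis, from 0) of 8 members in fibroblast-like nuclei, 1 point per library in the order corrected, Rbm20_homo, Rbm20_het and WT, with 95% Poisson intervals. Rbm20_homo is the lowest library for Lama4, Lamc1, Lamb1 and Itga8 and the highest for Itga9, Itgb5 and Itga1, while for Lamc3 it is WT that stands apart at 2.81 scaled CPM.

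The remaining members past the fold were scarce in fibroblast-like nuclei. Lamc3 had a scaled CPM of 12.3 in the corrected library, 9.56 in Rbm20_homo, 9.49 in Rbm20_het and 2.81 in WT, so the other 3 libraries all exceeded WT, Rbm20_homo being 3.4-fold [1.93 to 6.47] higher. Itga3 had 7.42 in the corrected library, 9.66 in Rbm20_homo, 3.31 in Rbm20_het and 3.61 in WT. Itga2b had 2.51 in the corrected library, 7.89 in Rbm20_homo, 4.07 in Rbm20_het and 3.41 in WT. Rbm20_homo was the highest library in both, and for Itga3 an estimated 27.2% of the UMIs in Rbm20_homo and 82.6% in WT were carry-over. Lamb3 had 11.2 in the corrected library, 6.65 in Rbm20_homo, 15.2 in Rbm20_het and 10.4 in WT. Itgb6 stood at 24.1 in the corrected library, 5.3 in Rbm20_homo, 7.38 in Rbm20_het and 12.2 in WT. Lama5 stood at 8.44 in the corrected library, 3.64 in Rbm20_homo, 4.52 in Rbm20_het and 9.83 in WT. The estimate of carry-over reached 115% of the Itgb6 UMIs in Rbm20_homo and 183% in WT, and 144% of those of Lama5 in Rbm20_homo and 117% in WT, so the UMIs of both are within what carry-over alone would give. Both are members that ventricular cardiomyocyte-like nuclei of Rbm20_homo carried less of, and the 13 markers of that lineage summed to 3859.6 CPM in fibroblast-like nuclei of Rbm20_homo and 4878 in WT. Of the abundant members not past the fold, Itgb1 had 212 in the corrected library, 225 in Rbm20_homo, 181 in Rbm20_het and 186 in WT. Itgav had 116 in the corrected library, 135 in Rbm20_homo, 109.6 in Rbm20_het and 109 in WT. Itgb8 had 107 in the corrected library, 109.6 in Rbm20_homo, 106 in Rbm20_het and 90.6 in WT. These 3 receptor chains spanned narrow ranges over the libraries.

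Against Rbm20_homo, the corrected library had 9 of 27 members at least 1.5-fold higher (Lamc1, Lamb3, Itga8, Itgb6, Itga6, Lama5, Lama4, Itga7 and Lamb1), where 9.1% of all genes were, and 3 lower (Itga10, Itga9 and Itga2b), where 11.1% were. All 3 chains Lama4, Lamb1 and Lamc1 of a common vessel-type trimer were thus among the higher ones. Of the others, Itga6 and Itga7, like Itgb6 and Lama5, had an estimated carry-over above all their UMIs. With carry-over subtracted, 5 of 22 measured members were higher and 5 lower, so the members no longer lay mostly on the higher side. Of the related lists, 10 of 27 measured basement membrane genes were higher in Rbm20_homo than in WT and 8 lower. Col4a3, a basement membrane collagen chain, had a scaled CPM of 251 in the corrected library, 482 in Rbm20_homo, 214 in Rbm20_het and 155 in WT, highest in Rbm20_homo. Frem1, a matrix protein of the Fras1 group, had 18.4 in the corrected library, 92.3 in Rbm20_homo, 12.2 in Rbm20_het and 15.8 in WT. Tnc, which encodes the Itga9 ligand tenascin-C, had 4.56 in the corrected library, 10.9 in Rbm20_homo, 0.602 in Rbm20_het and 2.41 in WT. Smoc1, a basement membrane protein of the Sparc family, had 5.48 in the corrected library, 7.89 in Rbm20_homo, 5.87 in Rbm20_het and 2.01 in WT. All 4 were highest in Rbm20_homo. The 3 lists are read against 13.2% of all genes higher and 9.68% lower: the basement membrane list had 37% higher and 29.6% lower, above both. Adhesion complex genes were 8 higher and 6 lower of 38 measured, or 21.1% and 15.8%. Tns3, a tensin that links integrin tails to actin, had 121 in the corrected library, 204 in Rbm20_homo, 106 in Rbm20_het and 98.5 in WT. Actn1, an actin crosslinker, had 27.3 in the corrected library, 46.4 in Rbm20_homo, 23 in Rbm20_het and 23.5 in WT. Ptk2b had 2.74 in the corrected library, 9.04 in Rbm20_homo, 3.61 in Rbm20_het and 3.81 in WT. All 3 were highest in Rbm20_homo, as was Csrp3, a muscle LIM protein, with 48 in the corrected library, 65.3 in Rbm20_homo, 33 in Rbm20_het and 32.3 in WT. Csrp3, Nrap, Sorbs2, Enah, Ptk2b and Bcar1, but not Tns3 and Actn1, were also higher in ventricular cardiomyocyte-like nuclei of Rbm20_homo. The median marker of that lineage stood here at 6.61% of its own-lineage level in Rbm20_homo and 8.03% in WT. Carry-over was not estimated for the genes of these lists, and its part in their values was not tested. The dystrophin complex list had 1 gene higher and 3 lower of 22, or 4.55% and 13.6%. Of the lower ones, the sarcoglycan gene Sgcd had 2421 in the corrected library, 1301 in Rbm20_homo, 2522 in Rbm20_het and 2036 in WT. Sgca, a sarcoglycan of striated muscle, had 9.93 in the corrected library, 5.3 in Rbm20_homo, 6.63 in Rbm20_het and 9.22 in WT. Sntb1 was lowest in Rbm20_homo as well, with 24.8 in the corrected library, 11.9 in Rbm20_homo, 27.1 in Rbm20_het and 39.1 in WT.

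In endothelial-like nuclei 2 laminin alpha chains stood on opposite sides: Rbm20_homo had less Lama4 and more Lama3 than WT. Of 20 members measured, 3 were at least 1.5-fold higher, where 11.0% of all genes were, and 2 lower, where 8.57% were. These are 15% and 10% of the members, both near the background. The atrial markers, 6 listed genes of which 3 had UMIs in every library and Sln and Bmp10 none, summed to 888 CPM in these nuclei of Rbm20_homo and 9.98 in WT, and the 12 fibroblast markers to 1120.5 in Rbm20_homo and 533 in WT. Their part in the differences below was not tested.

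Lama4 had a scaled CPM of 503 in the corrected library, 320.0 in Rbm20_homo, 421 in Rbm20_het and 597 in WT, and Rbm20_homo was 1.87-fold [1.7 to 2.05] lower than WT. In the main cluster c2 its CPM was 334 [308 to 362] in Rbm20_homo and 638 [603 to 676] in WT, and in c10 it was 225 [176 to 284] in Rbm20_homo and 346 [274 to 430.1] in WT. It was lower in Rbm20_homo in both clusters, with intervals that overlap slightly in c10. An estimated 43.4% of its UMIs in Rbm20_homo and 21.8% in WT came from other lineages.

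Lama3 was carried mainly by a small cluster. Cluster c10, led by genes of arterial endothelium such as Sema3g, Sox17 and Gja5, had 384 [324 to 451] CPM in the corrected library, 396 [330.0 to 472] in Rbm20_homo, 296 [242 to 359] in Rbm20_het and 319.6 [251 to 401] in WT, whereas c2 had 27.5 [22 to 33.8] in the corrected library, 52.9 [42.9 to 64.6] in Rbm20_homo, 33.5 [26.1 to 42.2] in Rbm20_het and 16.5 [11.2 to 23.5] in WT. Over the lineage the scaled CPM was 66.6 in the corrected library, 104 in Rbm20_homo, 70.5 in Rbm20_het and 49.1 in WT, and Rbm20_homo was 2.12-fold [1.67 to 2.7] higher than WT. Within c2 Rbm20_homo and WT had separate intervals, and within c10 they overlapped. Cluster c10 held 248 of the endothelial-like nuclei in the corrected library, 177 in Rbm20_homo, 196 in Rbm20_het and 140 in WT, whereas c2 held 2025 in the corrected library, 1065 in Rbm20_homo, 1181 in Rbm20_het and 1111 in WT.

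Itga6, the laminin receptor that marks this lineage, had a scaled CPM of 592 in the corrected library, 384 in Rbm20_homo, 413 in Rbm20_het and 566 in WT. The ratio of Rbm20_homo to WT was 0.679 [0.621 to 0.743], just short of 1.5-fold lower, while the corrected library was 1.54-fold [1.42 to 1.67] higher than Rbm20_homo. Itgb3, chosen after its values were seen because its ratio was the largest in the lineage, had 3.1 in the corrected library, 21.6 in Rbm20_homo, 7.65 in Rbm20_het and 2.34 in WT, with 46 UMIs in Rbm20_homo and 5 in WT. Itgb3, a vitronectin receptor chain of angiogenic endothelium, was thus 9.21-fold [3.67 to 29.7] higher in Rbm20_homo than in WT, an interval wide because of the few UMIs. Itgb5 was at 44 in the corrected library, 52 in Rbm20_homo, 44.7 in Rbm20_het and 29.96 in WT. Itgb6 was at 33.6 in the corrected library, 6.09 in Rbm20_homo, 16.5 in Rbm20_het and 29.5 in WT. The estimate of carry-over was 148% of the Itgb5 UMIs in Rbm20_homo and 113% in WT, and 187% of the Itgb6 UMIs in Rbm20_homo and 124% in WT, so the UMIs of both are within what carry-over alone would give.

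Of the abundant members not past the fold, Itga1 was nearly level at 686 in the corrected library, 734 in Rbm20_homo, 744 in Rbm20_het and 738 in WT. Itgb1 was at 318 in the corrected library, 316 in Rbm20_homo, 296 in Rbm20_het and 322 in WT. Lamc1 had 295 in the corrected library, 258 in Rbm20_homo, 291 in Rbm20_het and 289 in WT. These 3 levels lay close together over the libraries. For Lamc1, however, the estimated carry-over was 85.1% in Rbm20_homo and 46.9% in WT, and subtracting it gave a log2 ratio of -1.99 in place of -0.16. Itga9 had 161 in the corrected library, 196 in Rbm20_homo, 207 in Rbm20_het and 156 in WT, with an estimated carry-over of 79.4% in Rbm20_homo and 41% in WT. Subtracting it turned the direction, to a log2 ratio of -1.18 in place of 0.33. Lama2 had 438 in the corrected library, 306 in Rbm20_homo, 331 in Rbm20_het and 221 in WT, with an estimated carry-over of 254% in Rbm20_homo and 229% in WT, so its UMIs too are within what carry-over alone would give. Against Rbm20_homo, the corrected library had 3 of 20 members higher (Itgb6, Itga6 and Lama4), where 8.65% of all genes were, and 4 lower (Itga10, Itgb3, Itgb4 and Lama3), where 9.43% were.

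In the related lists, 5 of 21 measured basement membrane genes were higher in endothelial-like nuclei of Rbm20_homo than in WT and 4 lower, or 23.8% and 19%, where 11.0% and 8.57% of all genes were. Fn1, which encodes the Itga5 ligand fibronectin, had a scaled CPM of 39.2 in the corrected library, 74.5 in Rbm20_homo, 42.3 in Rbm20_het and 31.8 in WT. Col4a3 had 21.2 in the corrected library, 33.7 in Rbm20_homo, 16.9 in Rbm20_het and 12.2 in WT. Its partner chain Col4a4 had 28.5 in the corrected library, 37 in Rbm20_homo, 17.7 in Rbm20_het and 14.5 in WT. These 3 were highest in Rbm20_homo, whereas Nid2, a nidogen that ties laminin to collagen IV, was lowest there with 36.7 in the corrected library, 25.8 in Rbm20_homo, 37.9 in Rbm20_het and 52.4 in WT. Of the adhesion complex, 9 of 36 genes were higher and 2 lower, or 25% and 5.56%. Of the higher ones, Pdlim5, Sorbs2, Sorbs3, Enah, Nrap and Csrp3 were also higher in ventricular cardiomyocyte-like nuclei of Rbm20_homo, whereas Tln2, Tns3 and Kank2 were not. Ilk, a kinase-like adaptor on beta integrin tails, had 101 in the corrected library, 84.8 in Rbm20_homo, 114 in Rbm20_het and 195 in WT, so WT stood above all 3 other libraries. Tln2, a talin that activates integrins, had 173 in the corrected library, 266 in Rbm20_homo, 218 in Rbm20_het and 144 in WT. Enah had 174 in the corrected library, 229 in Rbm20_homo, 166 in Rbm20_het and 115 in WT. Nrap, a muscle adhesion protein, had 57.3 in the corrected library, 78.3 in Rbm20_homo, 34.6 in Rbm20_het and 37.4 in WT. Rbm20_homo was the highest library in the last 3. The dystrophin complex list had 2 of 18 genes higher and 1 lower, or 11.1% and 5.56%, near the shares of all genes. Sntb1 had 66.9 in the corrected library, 26.7 in Rbm20_homo, 64.4 in Rbm20_het and 74.4 in WT. Sntb1 was thus lowest in Rbm20_homo, as in fibroblast-like nuclei. Pomt2, an enzyme that starts the sugar chain of dystroglycan, had 14.4 in the corrected library, 18.7 in Rbm20_homo, 15.3 in Rbm20_het and 12.2 in WT. Dmd had 1132 in the corrected library, 1197 in Rbm20_homo, 968 in Rbm20_het and 834 in WT. Carry-over was not estimated for the genes of these lists. The 13 ventricular cardiomyocyte markers summed to 6406 CPM in endothelial-like nuclei of Rbm20_homo and 8354 in WT. The median marker stood at 11.1% of its own-lineage level in Rbm20_homo and 13.4% in WT. Dmd and Enah stood higher in ventricular cardiomyocyte-like nuclei, and Col4a3 in fibroblast-like nuclei, than here. The part of carried-over RNA in these values was not tested.

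**Figure D5:**
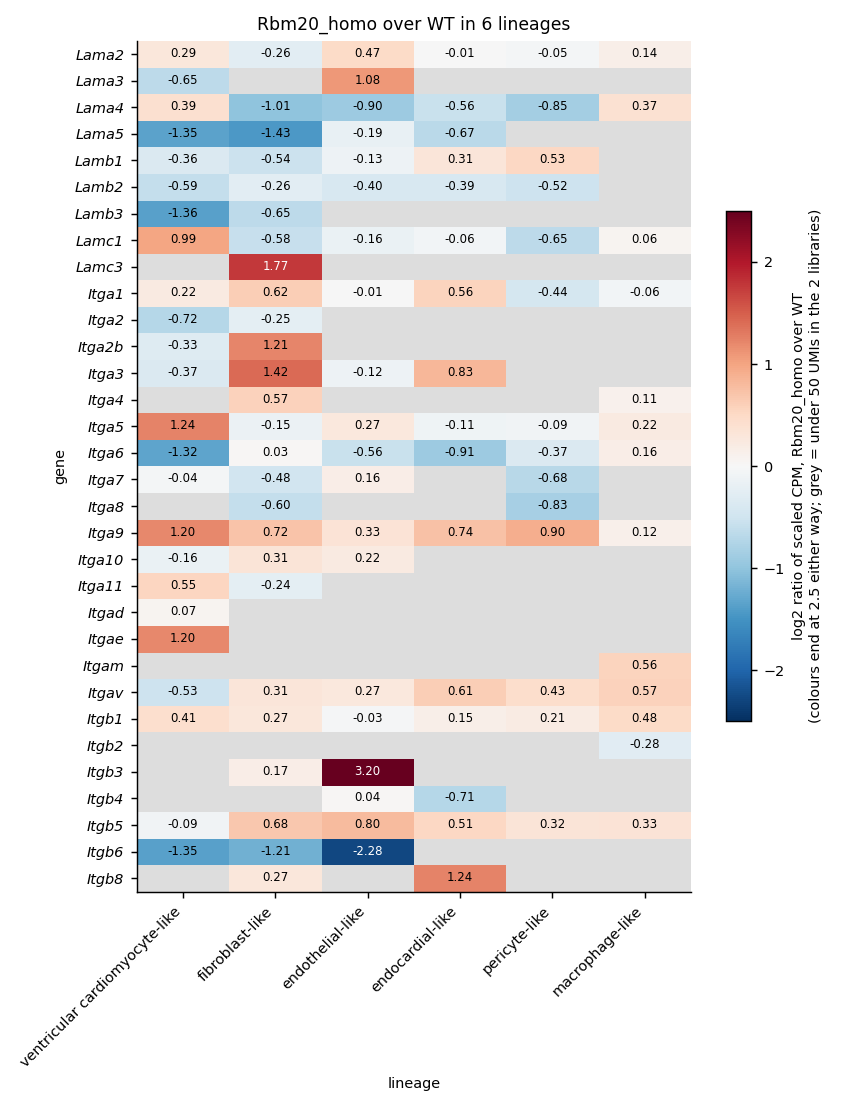
Heat map of the log2 ratio of Rbm20_homo to WT in scaled CPM for members with a value in at least 1 lineage (rows) in the 6 lineages with at least 200 nuclei in every library (columns), red where Rbm20_homo is higher and blue where it is lower. The number in a cell is the log2 ratio, and grey cells hold under 50 UMIs in the 2 libraries. Lama4 is lower in Rbm20_homo in fibroblast-like, endothelial-like and pericyte-like nuclei and Itga9 is higher in ventricular cardiomyocyte-like, fibroblast-like, pericyte-like and endocardial-like nuclei. No carry-over is subtracted in these ratios.

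In the 3 smaller lineages single values are given without counts. The 6 listed atrial markers summed to 646 CPM in pericyte-like nuclei of Rbm20_homo and 18.3 in WT. The sum was 692 in endocardial-like nuclei of Rbm20_homo and 22.9 in WT, and 765 in macrophage-like nuclei of Rbm20_homo and 18.5 in WT. Of these genes, Myl7, Sln and Bmp10 were at 0 in all 4 libraries in pericyte-like and macrophage-like nuclei. In endocardial-like nuclei Myl7 and Bmp10 were at 0 in all 4 libraries. The part of the atrial markers in the values was not tested. Pericyte-like nuclei, 493 to 1154 per library, had a scaled CPM for Lama4 of 313 in the corrected library, 201 in Rbm20_homo, 345 in Rbm20_het and 362 in WT, with Rbm20_homo 1.81-fold [1.52 to 2.15] lower than WT. Itga8 in the same nuclei was at 137 in the corrected library, 70.9 in Rbm20_homo, 109 in Rbm20_het and 126 in WT, with Rbm20_homo 1.78-fold [1.33 to 2.4] lower than WT. The lower levels of these 2 genes in Rbm20_homo were thus seen in pericyte-like nuclei too, in the same libraries, and carry-over was not estimated there. Itga9 had 43 in the corrected library, 69.9 in Rbm20_homo, 50.8 in Rbm20_het and 37.4 in WT, with Rbm20_homo 1.87-fold [1.26 to 2.8] higher than WT. Itgb6 stood at 27.6 in the corrected library, 5.06 in Rbm20_homo, 13 in Rbm20_het and 18.3 in WT, from 5 UMIs in Rbm20_homo and 21 in WT. The median fibroblast marker stood in pericyte-like nuclei at 23.61% of its own-lineage level in Rbm20_homo and 12.96% in WT. For the median ventricular cardiomyocyte marker it was 12.68% in Rbm20_homo and 14.18% in WT. Itga9 was higher in fibroblast-like nuclei, and Itgb6 in ventricular cardiomyocyte-like nuclei, than in pericyte-like nuclei. The part of carried-over RNA in these Itga9 and Itgb6 values was not tested.

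Endocardial-like nuclei had a scaled CPM for Itga9 of 521 in the corrected library, 497 in Rbm20_homo, 553 in Rbm20_het and 298 in WT, so the other 3 libraries were all above WT and Rbm20_homo was 1.67-fold [1.45 to 1.92] higher. Itga6 there was at 224 in the corrected library, 100.4 in Rbm20_homo, 162 in Rbm20_het and 189 in WT, with Rbm20_homo 1.88-fold [1.5 to 2.35] lower than WT. For Itgb8, an activator of latent TGF-beta, the values were 22 in the corrected library, 36.2 in Rbm20_homo, 14.9 in Rbm20_het and 15.4 in WT. For Itga3 they were 27.9 in the corrected library, 33.1 in Rbm20_homo, 41.2 in Rbm20_het and 18.6 in WT. Both rest on 14 to 57 UMIs per library. In macrophage-like nuclei no named member reached 1.5-fold between Rbm20_homo and WT. Itgam had 127 in the corrected library, 155 in Rbm20_homo, 107 in Rbm20_het and 105 in WT, a ratio of Rbm20_homo to WT of 1.48 [1.11 to 1.98]. Itgav had 177 in the corrected library, 188 in Rbm20_homo, 140.3 in Rbm20_het and 126 in WT. Itgb1 had 291 in the corrected library, 257 in Rbm20_homo, 218 in Rbm20_het and 184 in WT. Lama4, lower in Rbm20_homo in fibroblast-like, endothelial-like and pericyte-like nuclei, had 58.7 in the corrected library, 56.9 in Rbm20_homo, 47.3 in Rbm20_het and 43.9 in WT.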

How the data were processed

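Nuclei of 4 libraries (1 per genotype, 3 hearts pooled in each) were analysed from the deposited matrices. The authors deposited raw UMI counts per gene and barcode, made with Cell Ranger 6.1.1 and analysed with Seurat 4 on mm10 (GRCm38), per the submitters' processing notes, while the file headers name Cell Ranger 4.0.0. The handling of introns and the choice of barcodes are not given in the sources used here. The matrices hold 32287 features, 2 of them the added ABE_C and ABE_N.

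A nucleus was kept when it had 300 or more genes and no more than 5% of its UMIs from mitochondrial genes. Doublets were scored with Scrublet in scanpy 1.11.5, and the highest 0.8% per 1000 barcodes of each library were removed. Each nucleus was brought to a total of 10000 before taking logarithms, and 2000 variable genes without any member gave 30 components, 20 neighbours and Leiden clusters at resolution 0.8 (leidenalg 0.10.2, igraph 0.11.9, Python 3.11.15). A cluster was named from at least 3 enriched markers. The thresholds for naming were set after the data were seen, and the names are rebuilt here, not the authors' own.

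UMIs were summed per lineage and library. CPM is per 1e6 non-mitochondrial UMIs, and scaled CPM divides it by a median-of-ratios factor within the lineage. Levels have exact Poisson intervals and ratios exact conditional binomial intervals, both at 95% (scipy 1.17.1, numpy 2.4.6). They cover counting error only. A gene was counted as higher or lower from 1.5-fold on, with at least 50 UMIs in the 2 libraries. No test was made, since each genotype is 1 library. The ratios, their scaling and intervals were run on simulated Poisson counts, which hold no spread between animals or nuclei. That run therefore cannot say how the intervals do beyond counting error.

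Carry-over into a lineage was estimated as the member's level in each of the other 5 compared lineages times the median ratio of that lineage's marker levels in the 2 classes. Above 100% the estimate exceeds what was observed. Named members had at least 100 UMIs over the 4 libraries and were past 1.5-fold in Rbm20_homo against WT, with the 6 most abundant of the others. In smaller lineages and in each related list up to 4 were named by size of ratio. The members, lists and naming rule were chosen with earlier results of these data known. Gene coordinates are from GENCODE vM21 (GRCm38), and promoters from RefSeq (GRCm38.p6). Counts cover all measured genes, of which a few are not reported here by name. The alternatives were other scaling (plain CPM, TMM), UMI minimum, depth, doublets, clustering, gene minimum, carry-over and fold.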

Additional observations from a re-analysis of the deposited data

Results flagged for a closer look

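Each of the 4 members listed here had ratios of Rbm20_homo to WT in opposite directions in 2 or more lineages. Other members also had both signs, such as Itga5 with a log2 ratio of 1.24 in ventricular cardiomyocyte-like nuclei and -0.15 in fibroblast-like nuclei. With 1 library per genotype the difference between lineages was not tested. Lamc1 had a log2 ratio of 0.99 in ventricular cardiomyocyte-like nuclei and -0.58 in fibroblast-like nuclei. Lama4 had 0.39 in ventricular cardiomyocyte-like nuclei, -1.01 in fibroblast-like nuclei and -0.90 in endothelial-like nuclei. For Itga3 the log2 ratio was 1.42 in fibroblast-like nuclei and -0.37 in ventricular cardiomyocyte-like nuclei. An estimated 82.6% of its UMIs in fibroblast-like nuclei of WT were carry-over. For Lama3 the log2 ratio was 1.08 in endothelial-like nuclei and -0.65 in ventricular cardiomyocyte-like nuclei, the latter -0.35 at 1000 UMIs per nucleus.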

How the results depend on the processing

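Of 93 alternative values, 72 lay within 1.5 times the reported one and 21 moved. The 12 members past the fold in ventricular cardiomyocyte-like nuclei of Rbm20_homo against WT had no count moved beyond 1.5 times. The count was 8 at 1000 UMIs per nucleus, 8 at 2-fold and 15 with carry-over subtracted, 10 of those lower. With a 2-fold limit the count was 5 in place of 10 for the corrected library against Rbm20_homo in that lineage, 6 in place of 11 (Rbm20_homo against WT) and 4 in place of 12 (corrected against Rbm20_homo) in fibroblast-like nuclei, and 3 in place of 5 and 3 in place of 7 in endothelial-like nuclei. With at least 200 UMIs the fibroblast-like counts were 5 and 7, and the endothelial-like counts 2 and 3. At 1000 UMIs per nucleus Rbm20_homo against WT gave 5 in fibroblast-like and 3 in endothelial-like nuclei. With carry-over subtracted the endothelial-like count was 8 in place of 5. Against WT in ventricular cardiomyocyte-like nuclei, Rbm20_het had 9 with 20 UMIs, 2 with 200, 1 at 1000 UMIs per nucleus and 2 at 2-fold, in place of 5. The corrected library had 8 with 20 UMIs, 1 with 200, 1 at 1000 UMIs per nucleus, 4 with carry-over subtracted and 1 at 2-fold, in place of 2. A stricter minimum or fold takes members out by construction, and the cause of the other moves was not tested. Thinning also moved the log2 ratio of Rbm20_homo to WT in fibroblast-like nuclei to -0.70 in place of -1.43 for Lama5 and to 2.57 in place of 1.42 for Itga3. The lineage with the highest level was kept for 30 of 37 members at 1000 UMIs per nucleus, 32 without doublet removal, 36 at resolution 1.6, 36 with at least 500 genes and 37 with members among the variable genes. No paired analysis was possible because each genotype is 1 library. Scarce members are limited by depth, and the pooling of hearts leaves the spread between animals unmeasured.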

Other observations

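Lymphatic endothelial-like nuclei numbered under 200 in at least 1 library and enter no comparison of genotypes. They held the highest levels of Lama4, Itga9 and Itgb3. Lama4 stood at 1702 CPM [1573 to 1839] in the corrected library, 1526 [1431 to 1626] in Rbm20_homo, 1725 [1601 to 1856] in Rbm20_het and 1865 [1721 to 2018] in WT. Itga9 stood at 1205 CPM [1097 to 1321] in the corrected library, 978 [902 to 1059] in Rbm20_homo, 914 [825 to 1011] in Rbm20_het and 662 [577 to 756] in WT. Itgb3 stood at 116 CPM [84.5 to 156] in the corrected library, 105 [81.1 to 133] in Rbm20_homo, 74.8 [50.8 to 106] in Rbm20_het and 45.3 [25.4 to 74.8] in WT.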
